A study of Mus musculus with 3 samples.

Results

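Nrf2 ChIP-seq peaks were examined at 3 genes of iron storage and export, Fth1, Ftl1 and Slc40a1, in mouse C2C12 myotubes. The members were all peaks of either replicate that overlapped a fixed window at each gene, in the mm9 build: chr19:10000000-10110000 for Fth1, chr7:52660000-52770000 for Ftl1 and chr1:45890000-46040000 for Slc40a1. The windows held 5 of 2892 peaks in replicate 1 and 6 of 3593 in replicate 2. These loci were chosen with their peaks already known, and the members were thus selected on the presence and scores of the peaks, which are given as a description, without a test.

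C2C12 cells, wild type per the labels, are mouse myoblasts that fuse into myotubes resembling muscle fibres once serum is lowered. All cells had differentiated for 72 h and then received CDDO-Im, a synthetic triterpenoid known to activate Nrf2, at 100 nmol/L for 3 h. The labels name 2 Nrf2 ChIP replicates, each with its own peak list, and 1 input from cells given the same compound, which is not analysed here. No untreated group was analysed, so no effect of the compound can be read from the peaks. A peak list reads no RNA, so it bears on neither the expression of these genes nor the identity of the cells. The labels do not say whether the replicates came from separate cultures, and no read totals were at hand, which leaves the depth of both lists unknown.

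Ferritin is the cage-shaped protein complex in which cells store iron. Fth1 encodes its heavy chain, which carries the ferroxidase activity that oxidizes ferrous iron on entry, and Ftl1 encodes its light chain, which aids mineralization of the core. Slc40a1 encodes ferroportin, the known iron exporter of the cell surface. Nrf2 binds DNA with small Maf proteins at antioxidant response elements, and ferritin and ferroportin genes are among its known targets. In muscle, iron is also needed for myoglobin and for the respiratory chain.

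Sequences of the peaks themselves are not printed, since a genome of the mm9 build was not used here. The bases upstream of the annotated starts of the ferritin genes are shown as the stretches nearest to transcription. They come from RefSeq on the GRCm38.p6 build, which held promoters for 2 of the 3 members. Ftl1 has 1 start there (chr7:45459887-45460136, minus strand) and Fth1 has 2, both on the plus strand (lower start, chr19:9980350-9980599, and higher start, chr19:9982396-9982645). Each run is 250 bases, read 5′ to 3′ towards the gene, and capitals mark TGAC or its reverse complement GTCA, the bases that open the core of an antioxidant response element.
Ftl1: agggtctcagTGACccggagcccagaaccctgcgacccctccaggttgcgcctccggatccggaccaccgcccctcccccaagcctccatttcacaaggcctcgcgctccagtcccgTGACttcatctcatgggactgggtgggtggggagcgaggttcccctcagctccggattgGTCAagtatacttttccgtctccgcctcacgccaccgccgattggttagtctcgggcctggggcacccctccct
Fth1, lower start: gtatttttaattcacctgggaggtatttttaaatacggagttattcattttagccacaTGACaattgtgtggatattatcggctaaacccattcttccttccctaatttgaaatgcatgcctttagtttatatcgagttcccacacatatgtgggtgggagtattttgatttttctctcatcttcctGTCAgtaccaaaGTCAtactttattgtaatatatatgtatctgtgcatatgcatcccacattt
Fth1, higher start: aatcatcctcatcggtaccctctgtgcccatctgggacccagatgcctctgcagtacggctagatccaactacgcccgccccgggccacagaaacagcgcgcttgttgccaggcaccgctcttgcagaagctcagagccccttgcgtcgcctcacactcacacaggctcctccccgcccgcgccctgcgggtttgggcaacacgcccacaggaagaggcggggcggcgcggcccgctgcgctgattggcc
The core searched was TGACNNNGC on both strands, which can overlap an AP-1 motif. It matched 0 times in each of the 3 stretches. Of all 32851 annotated promoters, 10.2% held at least 1 match in their 250 upstream bases. The Ftl1 stretch and the higher Fth1 start were rich in G and C (65.2% and 66.8%, against a median of 52.4% over all promoters), and the lower Fth1 start was not (34.8%). The ChIP peaks are in mm9, so whether any of them covers these stretches was not determined.

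The storage genes each had 1 peak in each replicate, and Slc40a1 had 3 in replicate 1 and 4 in replicate 2. Where a peak of each replicate covered at least 1 bp in common they were merged into a shared region, which gave 5 such regions, 1 at Fth1, 1 at Ftl1 and 3 at Slc40a1. All 5 peaks of replicate 1 had a partner in replicate 2, where the figure over the whole list was 66.1%. In replicate 2, 5 of 6 had a partner, against 50% of its whole list. Of the peaks that scored 200 or more, 99.3% in replicate 1 and 91.2% in replicate 2 had a partner, so the strong peaks here shared this with most peaks of such scores. The score is the authors' own value for each peak and is used here to rank and filter the peaks of a list. A fixed score is not the same cut in both lists: 285 of 2892 peaks reached 200 in replicate 1 and 660 of 3593 in replicate 2. It was read as -10 times the log10 of the caller's p-value, so a high score marks a peak the caller rated unlikely to be background.

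**Figure D1:**
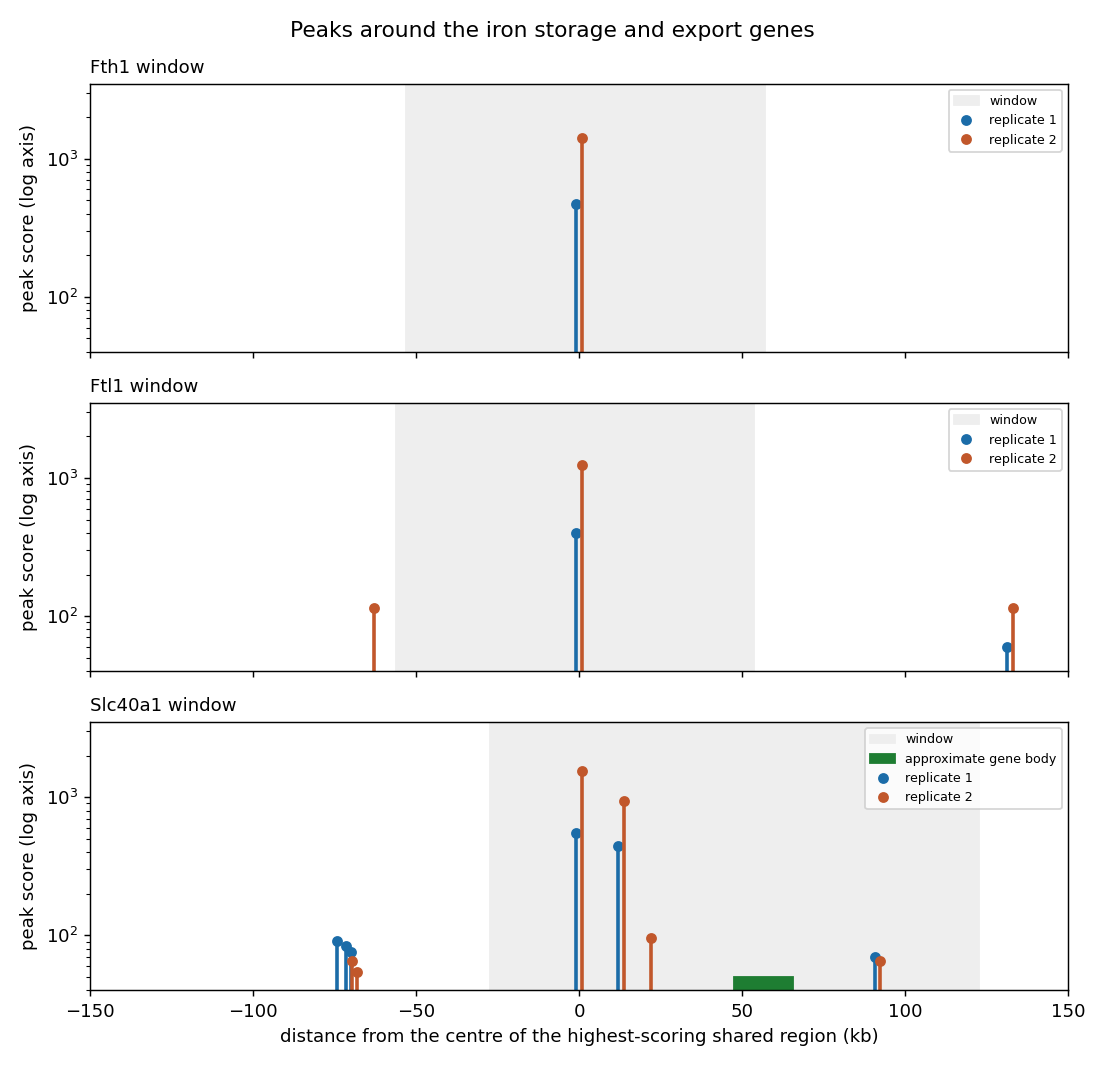
Peaks of replicate 1 (blue) and replicate 2 (orange) around each gene, by distance in kb from the centre of the highest-scoring shared region, with the peak score on a log axis and the replicates drawn slightly apart. The Fth1 and Ftl1 windows (grey) hold 1 tall peak per replicate, and the Slc40a1 window holds 2 tall ones, both on the lower-coordinate side of the approximate gene body (green).

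At Fth1, the peak of replicate 1 lay at chr19:10052731-10053470 and scored 469, and that of replicate 2 lay at chr19:10052629-10053607 and scored 1406. The first ranked 45 of 2892 in its list (highest 1.56%) and the second 19 of 3593 (highest 0.529%). On chromosome 19 it ranked 3 of 28 peaks in replicate 1 and 2 of 50 in replicate 2. It stood alone, with 0 other peaks within 100 kb in either list. The nearest ones lay 371 kb below and 159 kb above in each replicate, between centres, and both of those lay outside the window. The lower of these neighbours scored 91.0 in replicate 1 and 51.0 in replicate 2, and the higher scored 51.4 and 168.

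The peak sat 53.1 kb from the lower edge of the Fth1 window and 56.9 kb from its upper edge. A start site in mm9 coordinates was not available for Fth1 or Ftl1, and no coordinates were converted between builds, so distances to these gene starts are not given. In the RefSeq gene table of GRCm38.p6, the protein-coding neighbours of Fth1 are Best1, a chloride channel gene next to it on the higher side, and Incenp, which encodes a subunit of the chromosomal passenger complex. In order of start, 4 other genes come between Incenp and Fth1, none of them protein-coding, and the one next to Fth1 is the long non-coding RNA gene Gm41806. The peak is named here by the window and was not assigned to any 1 of these genes.

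At Ftl1, the peak of replicate 1 lay at chr7:52715944-52716682 and scored 399, and that of replicate 2 lay at chr7:52715889-52716812 and scored 1235. These ranked 62 of 2892 (highest 2.14%) and 23 of 3593 (highest 0.640%). It was the highest-scoring peak of chromosome 7 in both lists, 1 of 46 peaks in replicate 1 and 1 of 84 in replicate 2. In replicate 1 the next peak below it was 17697 kb away and the next above it 132 kb away. In replicate 2 another peak (chr7:52652037-52652736, score 115, rank 1319 of 3593) lay 64.0 kb below, 7.26 kb outside the window and without a counterpart in replicate 1. Each ferritin window thus held 1 peak per list, and its rank and its place in the window follow from how the windows were chosen.

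In the GRCm38.p6 gene table Ftl1 lies directly between Gys1, which encodes the glycogen synthase of muscle, and Bax, which encodes a pro-apoptotic protein of the Bcl-2 family. The Ftl1 peak could not be assigned to 1 of these neighbours without gene positions in mm9.

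At Slc40a1, the highest peak lay at chr1:45916941-45917708 in replicate 1, with a score of 546, and at chr1:45916890-45917827 in replicate 2, with a score of 1546. It ranked 29 of 2892 (highest 1.00%) and 14 of 3593 (highest 0.390%). On chromosome 1, where the lists hold 909 and 729 peaks, it ranked 2 in replicate 1 and 1 in replicate 2. The second strong peak lay at chr1:45929914-45930602 in replicate 1, with a score of 446 and rank 49. In replicate 2 it lay at chr1:45929949-45930725, with a score of 930.1 and rank 55. On chromosome 1 this second peak ranked 6 and 4. The ferroportin window was therefore the only 1 of the 3 with a pair of high-ranked peaks. It was also longer than the ferritin windows (150 kb against 110 kb), and all 3 were chosen with their peaks known.

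The strong pair lay on the lower-coordinate side of the gene. The rule that chose the members places the gene body at about 45.965 to 45.983 Mb. This was not checked against an annotation, and all distances to the gene rest on it. The centres of the pair were about 48 and 35 kb below its lower end. Slc40a1 is known to be transcribed towards lower coordinates, so its start is at the upper end, and the centres were about 66 and 53 kb from it, beyond the 3′ end of the gene. No peak of either list overlapped the gene body as placed by the rule. The centres of both strong regions were 12961 bp apart, with 12086 bp between their edges. Of 229 shared regions with a score of at least 200 in both replicates, 26.6% had another such region within 20 kb. The share was 18.5% of the 151 on chromosomes 2 to 19 and 11.8% of the 34 on chromosome 1, where the Slc40a1 pair makes up 2 of the 4 such regions. The 20 kb limit was set after the spacing at Slc40a1 was seen.

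The other peaks of the Slc40a1 window had scores below 100. A peak about 26 kb beyond the upper end of the gene, on the side of the gene start, was in both lists, at chr1:46008697-46009014 with a score of 70.0 in replicate 1 and at chr1:46008575-46008927 with a score of 64.6 in replicate 2. It ranked 1745 of 2892 and 2627 of 3593, and its scores were below the median of each list (80.0 and 88.7). A peak about 26 kb below the lower end (chr1:45938289-45938800, score 95.1, rank 1645 of 3593) was in the list of replicate 2 only, a little above the median score of that list. Just outside the window, the nearest peaks were 41.5 kb below and 68.0 kb above it in replicate 1 and 41.4 kb below and 66.2 kb above it in replicate 2, with scores from 54.3 to 98.4. The only peaks with scores above 100 in this stretch were the strong pair.

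In the GRCm38.p6 gene table no other protein-coding gene is next to Slc40a1. Below it, on the side of the strong pair, the order is the pseudogenes Gm18303, Gm5269 and Gm5526, the long non-coding RNA gene Gm30900, and then Wdr75, which encodes a nucleolar protein of ribosomal RNA processing. Above it come 5 pseudogenes, of which Gm9496 is the nearest, and then Dnah7b, which encodes a dynein heavy chain of cilia. Which of the lower genes lie between the strong pair and Slc40a1 in mm9 was not determined, so the pair cannot be tied to Slc40a1 rather than Wdr75 from position alone.

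**Figure D2:**
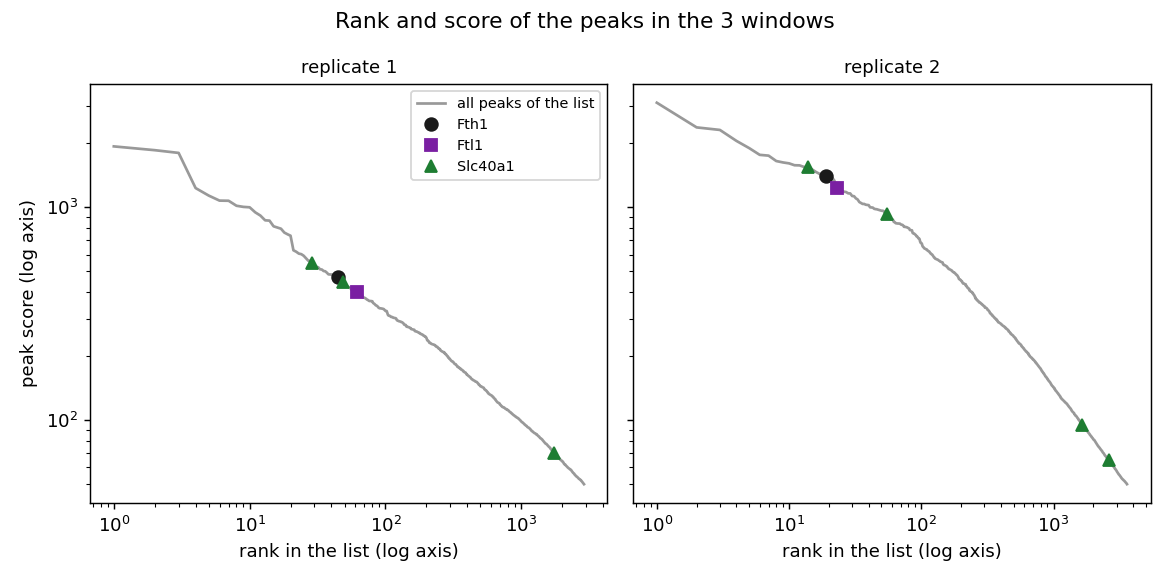
Peak score against rank in each list, both on log axes, with all peaks as a grey line and the peaks of the 3 windows as symbols. Fth1, Ftl1 and the 2 strong Slc40a1 peaks lie between ranks 29 and 62 in replicate 1 and between ranks 14 and 55 in replicate 2, and the other Slc40a1 peaks lie at ranks 1645 to 2627.

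The 4 strong peaks did not keep 1 order. The score of the first Slc40a1 peak was the highest of the 4 in both lists and that of Fth1 was the second. In replicate 1 the second Slc40a1 peak (446) stood above Ftl1 (399), and in replicate 2 Ftl1 (1235) stood above the second Slc40a1 peak (930.1). Scores carry no error of their own, so the order of the last 2 is not settled by these lists. When the 1750 shared regions of the whole lists were ordered by the worse of their ranks in both replicates, the 4 strong regions came at places 20 (first Slc40a1 region), 31 (Fth1), 38 (second Slc40a1 region) and 40 (Ftl1). The low Slc40a1 region came at place 1438. Among the shared regions of their own chromosomes, Ftl1 took place 1 of 39 on chromosome 7, Fth1 took place 3 of 23 on chromosome 19, and the strong Slc40a1 regions took places 1 and 3 of 492 on chromosome 1.

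**Figure D3:**
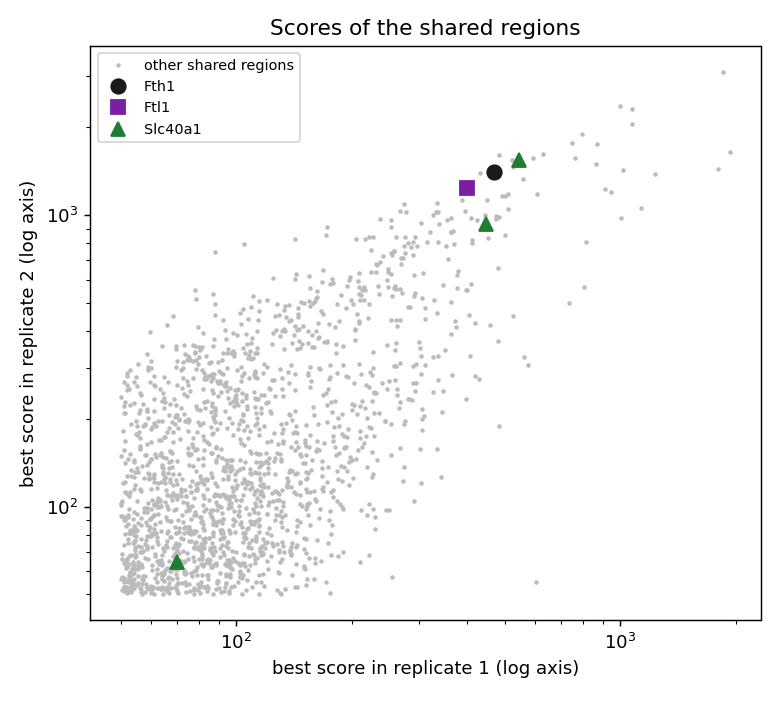
Best score of each shared region in replicate 1 and replicate 2, both on log axes, with the regions of the 3 windows as symbols. The 4 strong regions score 399 to 546 in replicate 1 and 930.1 to 1546 in replicate 2, and 1 Slc40a1 region (70.0 and 64.6) lies among the low-scoring ones.

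Position, which the choice of members did not use beyond the windows, was similar in both replicates at the strong regions. A shared region needs an overlap of at least 1 bp, so its peak centres had to lie close. This limit holds for the members and for the regions they are compared with. The centres of the replicate peaks were 17.5 bp apart at Fth1, 37.5 bp at Ftl1, 34.0 bp at the first Slc40a1 region and 79.0 bp at the second. Over the 187 regions with 1 peak of each replicate and a score of at least 200 in both, the median offset was 40 bp, with quartiles of 17.5 and 72.8 bp. The members thus spread over the usual range, with the second Slc40a1 region just past the upper quartile. At the low Slc40a1 region the offset was 104.5 bp, against a median of 43.0 bp and an upper quartile of 86.0 bp over all 1613 regions with 1 peak of each replicate.

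At Fth1, Ftl1 and the first Slc40a1 region the peak of replicate 1 lay wholly inside that of replicate 2, and at the other 2 regions it did not. This nesting held for 63.7% of all regions with 1 peak of each replicate and for 71.1% of those with a score of at least 200 in both. The nested peaks were 740, 739 and 768 bp wide in replicate 1 and 979, 924 and 938 bp wide in replicate 2. The second Slc40a1 peak was 689 bp wide in replicate 1 and 777 bp in replicate 2, and the low one 318 and 353 bp. Median widths over the 187 of these regions with a score of at least 200 in both were 674 bp in replicate 1 and 850.0 bp in replicate 2. Over all 1613 they were 488 and 669 bp, so the medians were higher with the score limit. The ferritin peaks and the first Slc40a1 peak were wider than the medians of the 187 in both lists, and the second Slc40a1 peak in replicate 1 only. The members were selected with their scores known, and their width was not compared with that of peaks of like score.

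**Figure D4:**
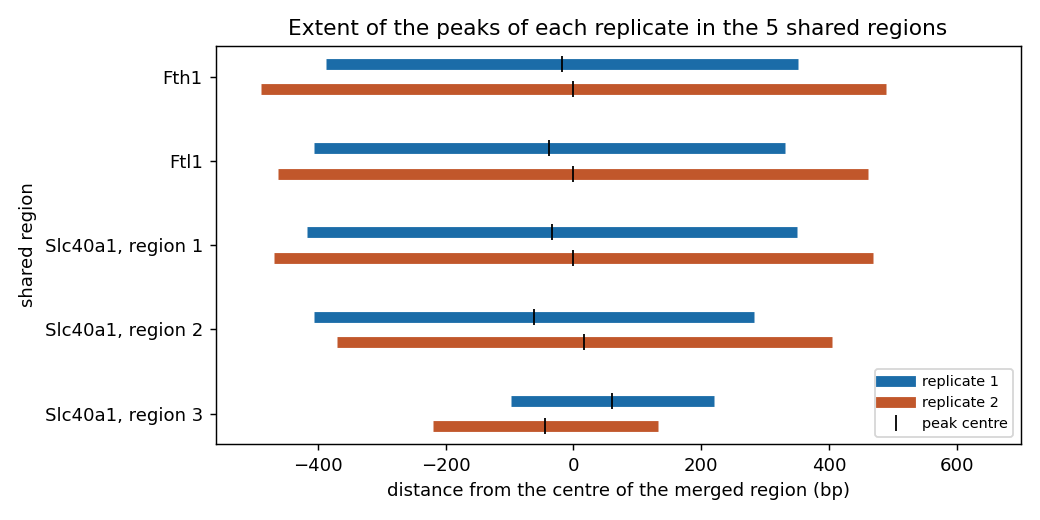
Extent of the peak of each replicate in the 5 shared regions, in bp from the centre of the merged region, with ticks at the peak centres. The replicate 1 peak lies inside that of replicate 2 at Fth1, Ftl1 and the first Slc40a1 region, and the centres are farthest apart (104.5 bp) at the low-scoring Slc40a1 region.

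The 3 windows did not have the same background. Of 110 kb windows laid end to end, 4.55% held a shared region over the numbered chromosomes and X, 3.96% on chromosome 19 and 2.46% on chromosome 7. A shared region with a score of at least 200 in both replicates was held by 0.763% of them over the genome, 0.719% on chromosome 19 and 0.362% on chromosome 7. Of 150 kb windows, the length used for Slc40a1, 5.91% over the genome, 24.1% on chromosome 1 and 45.6% of the 333 in its first 50 Mb held a shared region. With a score of at least 200 in both these shares were 1.01%, 2.28% and 4.2%. Windows with a shared region of any score were thus common in that stretch. Those with a high-scoring one were rarer, but their share was also above that of the genome (4.2% against 1.01%). The stretch contains the Slc40a1 window, so the Slc40a1 regions are counted in these shares. Since the windows were chosen for their peaks, these shares describe the surroundings and test nothing.

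Peak density moved with the locus in the same way. The first 50 Mb of chromosome 1 held 10.4 peaks per Mb in replicate 1 and 7.74 in replicate 2, against 0.302 and 0.552 on chromosome 7 and 0.457 and 0.816 on chromosome 19. Within 1 Mb of the first Slc40a1 peak each list held 27 other peaks, and within 1 Mb of the Fth1 or Ftl1 peak 2 in replicate 1 and 4 in replicate 2. The part of this density in the Slc40a1 peaks was not tested.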

How the data were processed

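Nrf2 ChIP-seq was done on 2 replicates of C2C12 myotubes exposed to CDDO-Im. The submitters' processing notes name MACS 1.4, Bowtie2 and bcl2fastq 2.15.0 and the mm9 build. Settings, and any use of the input as control, are not stated there. Each deposited list holds the position and score of the peaks of 1 replicate, called without pooling. The score deposited by the authors was read as -10 times log10 of the p-value, since the lowest score is 50, that of a p-value of 1e-05. It depends on depth, which is unknown.

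BED starts were raised by 1. Overlapping peaks (at least 1 bp) were merged into shared regions, scores were ranked within a list, and distances run between centres. Shares of windows count windows laid end to end up to the last peak of each chromosome. No test was run, because the loci were chosen from these peaks. The pairing, ranking and window code was checked on simulated lists. Every peak in the windows is reported. The members, the windows and the lists were chosen with earlier results of these data known. A list of other iron genes and distances to the starts of Fth1 and Ftl1 needed an mm9 annotation and were not run. Gene order and promoter sequences are from RefSeq GRCm38.p6. Scripts ran in Python 3.11.15 with SciPy 1.17.1, NumPy 2.4.6 and, for figures, matplotlib 3.10.9. The alternatives covered overlap, score, window size, the peaks ranked, ranking by width and the placing of windows.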

Additional observations from a re-analysis of the deposited data

How the results depend on the processing

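Of 59 alternative values, 43 stayed within 1.5 times the main count or within the 95% Wilson interval of the main share or percentile. The other 16 moved further. For a percentile the interval served only as a tolerance, since the rank of 1 chosen peak is not a sampled proportion. A fall from 3 to 2 shared regions at Slc40a1 was counted as staying. The single shared region at Fth1 and at Ftl1 was found under all 6 alternatives run for it, and the 2 strong regions at Slc40a1 remained when only scores of at least 100 or the 1000 highest-scoring peaks were used. With windows widened by 50 kb on each side, the Ftl1 window held 2 peaks of replicate 2, and the Slc40a1 window held 5 shared regions and 6 peaks of replicate 1. With scores of at least 100, the Slc40a1 window held 2 peaks of replicate 2. The best peaks were also ranked among peaks of chromosomes 2 to 19, with the Slc40a1 peak added. In replicate 1 they came in the highest 2.82% at Fth1, 3.43% at Ftl1 and 1.90% at Slc40a1. The ranks were 37 of 1312, 45 of 1312 and 25 of 1313. In replicate 2 the values were 0.76%, 0.938% and 0.581%, each within the interval of its main value. Ranked by width, the best peaks came in the highest 16.4%, 16.4% and 15.1% in replicate 1, with 12.6%, 14.6% and 14.1% for replicate 2. The share of windows with a shared region was 3.96% on chromosome 19 and 2.46% on chromosome 7 for 110 kb, and 24.1% on chromosome 1 for 150 kb. Shared regions could not be computed without replicate 1 or without replicate 2. No paired analysis was possible because only 1 group was immunoprecipitated. Unknown depth limits any reading of the peak found in 1 list only.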
